A study of Mus musculus with 8 samples.

Results

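Promoters of expressed genes at which every H3K27me3 library had a peak were examined in mouse embryonic stem cells (mESCs). The peaks of 4 ChIP-Seq libraries were merged, and merged regions were kept if they held a peak of every library and lay within 1 kb of the 5′ end of a named RNA-Seq locus. A region was a member if the highest of those loci had a mean of at least 10 CPM (read counts scaled to the total of the library) in the control RNA-Seq libraries. Of 19460 merged regions, 5417 held a peak of every library and 2554 of those lay at a 5′ end. The members were 977 regions, at 973 distinct loci. The other shared promoter regions were 711 whose highest locus lay between 1 and 10 CPM and 866 whose highest locus was below 1 CPM, called silent here. The members were thus chosen by the presence of peaks in all 4 libraries and by the control RNA level, and both are given only as descriptions.

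The cells were an Oct4-GFP mESC line, in which the Oct4 promoter drives the green fluorescent protein. They were grown without feeder cells on gelatin, in medium with serum replacement, LIF and 2 inhibitors (2i). The control medium carried 0.9% NaCl, and the treated cells received 10 µM morphine for 24 h. Each condition had 2 ChIP-Seq and 2 RNA-Seq libraries from the same single line. The paper calls the ChIP-Seq replicates biological, but no source used here says that they were separate cultures, so the p-values measure only the spread between these libraries, which may be technical.

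H3K27me3 is laid down by Polycomb repressive complex 2 (PRC2), and in stem cells it marks the CpG-rich promoters of developmental genes, most of which are silent. Transcribed promoters usually lack the mark, since nucleosomes are depleted at an active start site and trithorax-type complexes mark its flanks with H3K4me3 instead. In stem cells a promoter can carry both marks, a state called bivalent.

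The labelled cell type was checked against its markers. The summed normalised level of 10 pluripotency markers lay between 5122 and 5367 CPM over the 4 RNA-Seq libraries, and none was below 1 CPM in all of them. Summed levels were 18.1 to 20.5 CPM for 7 fibroblast markers, 39.7 to 42.4 CPM for 6 primitive endoderm markers, 22.6 to 25.9 CPM for 5 trophoblast markers, 19.2 to 20.8 CPM for 5 neuroectoderm markers and 2.31 to 3.04 CPM for 5 mesoderm markers. The RNA-Seq libraries held 25081266 to 29531096 counts. The ChIP-Seq libraries held 10305 and 13778 peaks in control and 8681 and 12282 in morphine. Their read depth was not used here.

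The sequences of 6 promoters are shown because their 5′ ends differ in peak coverage and CpG number, and at some of them the peaks lay beside the printed stretch. They are RefSeq promoters on GRCm38.p6, from 250 bases before to 50 after the transcript start, written 5′ to 3′ on the strand of the gene, with each CpG dinucleotide in capitals. Gab1, a docking protein of receptor tyrosine kinases (chr8:80880470-80880769, minus strand, 26 CpGs), is shown because its 5′ end lay under a peak in the morphine libraries only. Bmp4, a secreted bone morphogenetic protein (chr14:46390620-46390919, minus strand, 12 CpGs), lay under a peak in all 4 libraries. Ckb, the brain-type creatine kinase (chr12:111672289-111672588, minus strand, 22 CpGs), Crebbp, a histone acetyltransferase (chr16:4213355-4213654, minus strand, 49 CpGs), and B3gnt5, a glycosyltransferase of lacto-series glycosphingolipids (chr16:19759984-19760283, plus strand, 9 CpGs), had a 5′ end free of peaks in all 4. Tifa, an adaptor of NF-kappaB signalling (chr3:127789622-127789921, plus strand, 14 CpGs), is a silent promoter for comparison. It was the widest silent region covered in all 4 libraries whose promoter held the median CpG number of that class.
Gab1: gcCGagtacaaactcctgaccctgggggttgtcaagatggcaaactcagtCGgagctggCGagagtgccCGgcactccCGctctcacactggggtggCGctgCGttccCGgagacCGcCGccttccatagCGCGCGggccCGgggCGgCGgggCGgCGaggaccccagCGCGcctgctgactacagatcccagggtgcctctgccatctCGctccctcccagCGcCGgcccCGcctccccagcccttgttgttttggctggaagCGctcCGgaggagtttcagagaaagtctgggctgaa
Bmp4: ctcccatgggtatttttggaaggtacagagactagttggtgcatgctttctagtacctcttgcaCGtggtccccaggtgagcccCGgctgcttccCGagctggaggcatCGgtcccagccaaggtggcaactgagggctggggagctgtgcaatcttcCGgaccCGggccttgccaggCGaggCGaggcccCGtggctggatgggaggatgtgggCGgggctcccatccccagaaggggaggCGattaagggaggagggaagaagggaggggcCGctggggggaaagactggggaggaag
Ckb: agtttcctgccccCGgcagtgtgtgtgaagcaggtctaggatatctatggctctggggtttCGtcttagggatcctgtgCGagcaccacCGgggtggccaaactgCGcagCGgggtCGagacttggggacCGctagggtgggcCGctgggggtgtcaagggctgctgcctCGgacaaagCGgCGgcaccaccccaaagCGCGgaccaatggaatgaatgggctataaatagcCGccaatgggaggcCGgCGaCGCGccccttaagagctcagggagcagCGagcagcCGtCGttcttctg
Crebbp: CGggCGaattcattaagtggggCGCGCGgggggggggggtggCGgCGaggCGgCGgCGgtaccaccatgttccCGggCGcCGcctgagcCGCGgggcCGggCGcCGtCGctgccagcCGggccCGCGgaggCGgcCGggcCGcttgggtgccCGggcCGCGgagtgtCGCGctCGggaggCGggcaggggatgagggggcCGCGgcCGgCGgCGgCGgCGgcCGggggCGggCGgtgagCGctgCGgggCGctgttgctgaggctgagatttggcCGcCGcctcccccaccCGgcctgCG
B3gnt5: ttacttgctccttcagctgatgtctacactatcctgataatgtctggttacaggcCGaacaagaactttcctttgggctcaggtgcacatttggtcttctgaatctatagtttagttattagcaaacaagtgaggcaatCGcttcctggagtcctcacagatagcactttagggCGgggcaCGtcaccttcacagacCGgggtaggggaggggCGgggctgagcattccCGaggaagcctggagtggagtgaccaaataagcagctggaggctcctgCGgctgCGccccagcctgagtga
Tifa: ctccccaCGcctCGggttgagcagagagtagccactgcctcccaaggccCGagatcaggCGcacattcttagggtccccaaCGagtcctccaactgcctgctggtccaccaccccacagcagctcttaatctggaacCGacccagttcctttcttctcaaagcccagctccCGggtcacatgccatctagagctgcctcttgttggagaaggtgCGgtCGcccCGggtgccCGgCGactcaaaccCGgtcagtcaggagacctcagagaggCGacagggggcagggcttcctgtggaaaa

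Of the 973 member loci, 701 matched a RefSeq promoter, as did 505 of 865 silent loci. The median number of CpGs per 300 bases was 26 in members, 14 in silent promoters, 22 in 5552 matched promoters of expressed loci without a peak and 7 in all 32851 promoters of the table. The letters CGCG, searched on both strands, were found in 86.2% of member promoters, 55.2% of silent ones, 76.7% of expressed ones without a peak and 38.04% of all. The GC box GGGCGG, which SP and KLF factors can bind and which may overlap CGCG, was found in 80.2% of members, 51.5% of silent promoters, 68.0% of expressed promoters without a peak and 35.7% of all. The ETS letters CCGGAAG were found in 11.3% of members, 4.55% of silent promoters, 24.5% of expressed promoters without a peak and 8.86% of all. Members thus had more CpGs than either other class, with fewer ETS matches than expressed promoters without a peak. A match is no evidence of binding.

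The wider sequence gave the same order. In the 1001 bp centred on the 5′ end, the median GC content was 63.9% in members, 56.4% at silent loci and 58.7% at 7462 expressed loci without a peak. The median observed to expected CpG ratio was 0.788, 0.528 and 0.746 in that order. Windows with over 50% GC and a ratio over 0.6, the usual criteria of a CpG island, made up 85.6% of members, 34.3% of silent loci and 75.3% of expressed loci without a peak.

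Member regions had a median width of 3645 bp, from 1372 to 8355 bp, and 947 of 977 held exactly 4 peaks, 1 per library. The 5′ end of the locus lay inside the merged region for 590 members, while 200 regions ended upstream of it and 187 began downstream. Every library had a peak of its own within 1 kb of the 5′ end at 887 members. The midpoint of the region lay in an intron of a GENCODE gene for 558 members, outside genes for 276 and in an exon for 143. A GENCODE transcript start of the same name lay within 100 bp of the 5′ end for 826 members and within 1 kb for 937. A protein-coding gene was annotated for 958.

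Which gene a peak belongs to was not always clear. A second named locus began within 1 kb of the region at 175 members, and at 83 of them that locus was below 1 CPM, against 47 at which it was also at 10 CPM or more. A 5′ end on the opposite strand lay within 1 kb at 126 members, and 110 highest loci carried more than 1 gene name. Among regions with more than 3 named loci, the one at Dst, a cytoskeletal linker (chr1:33904503-33910516 on mm10, as for every region below, 209 CPM), also held the divergent start of Bend6, at 1.91 to 2.69 CPM in its loci. The region at Polr3f, a subunit of RNA polymerase III (41.6 CPM), lay 393 bp from that 5′ end but 46 bp from that of Dzank1, at 0.561 to 3.02 CPM. The region at Dnttip1 (23.7 CPM) held the start of Wfdc3, at 0.0169 CPM, and those at Kif21b and Sypl lay 35 and 228 bp from the starts of loci at or near 0 CPM.

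The median control level of members was 33.5 CPM, or 7.36 CPM per kb of locus length, and the highest was 807 CPM. On the scale of CPM per kb, the members named for the highest CPM were ordered Rpl7 (598), Rpl26 (590), Kars (275), Gab1 (126), 2610507B11Rik (80.2) and Arid5b (45.1). Rpl7 and Rpl26 encode proteins of the large ribosomal subunit, Kars is lysyl-tRNA synthetase and Arid5b is a DNA-binding cofactor. Ribosomal protein genes have many processed copies, so the levels of Rpl7 and Rpl26 are uncertain. Just inside the limit were Cd200 (10.0216 CPM), Tesk1 (10.0208 CPM) and Gpr160 (10.0083 CPM), and just outside were Ripply3 (9.99242 CPM), D1Ertd622e (9.98459 CPM) and Lrrc8b (9.96453 CPM).

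The peaks avoided the 5′ ends of members in the control libraries and did so less in the morphine libraries. In control, 301 and 310 of the 977 member 5′ ends lay under a peak of the library, or 30.8% (95% Wilson interval 28.0 to 33.8) and 31.7% (28.9 to 34.7). In morphine, 530 and 476 did, or 54.2% (51.1 to 57.3) and 48.7% (45.6 to 51.9). The shares of the conditions did not overlap. The intervals cover counting error only and treat regions as independent.

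The difference was 20.2 percentage points, from 31.3% ± 0.651 (SD, n = 2) to 51.5% ± 3.91 (SD, n = 2), against a pooled SD of 2.80 between replicates. A two-sided exact permutation test over the libraries gave p = 0.333, the smallest value that 2 against 2 can give. The library with the fewest peaks, morphine replicate 1, had the highest share. The median width of all peaks of a library was 2803 and 2808 bp in control and 2911 and 2831 bp in morphine, and 15, 22, 3 and 6 members held more than 1 peak of control replicates 1 and 2 and morphine replicates 1 and 2. The part of peak width and of split peaks in the difference was not tested. With equal numbers of the strongest peaks per library the shares were 30.5% and 30.2% in control and 54.2% and 47.1% in morphine. With peaks of score 100 or more alone, a stricter p-value of the peak caller, they were 24.5% and 25.4% against 38.6% and 39.6%. Under these filters, here and below, every region stayed in. A region left without a peak of a library counted as uncovered, with no length under a peak. Loss of a peak and its position over the 5′ end were thus not separated. In the 826 members with a GENCODE start within 100 bp the difference was 21.2 points, and in the 721 members with a single named locus and no other GENCODE gene start it was 20.9 points.

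**Figure D1:**
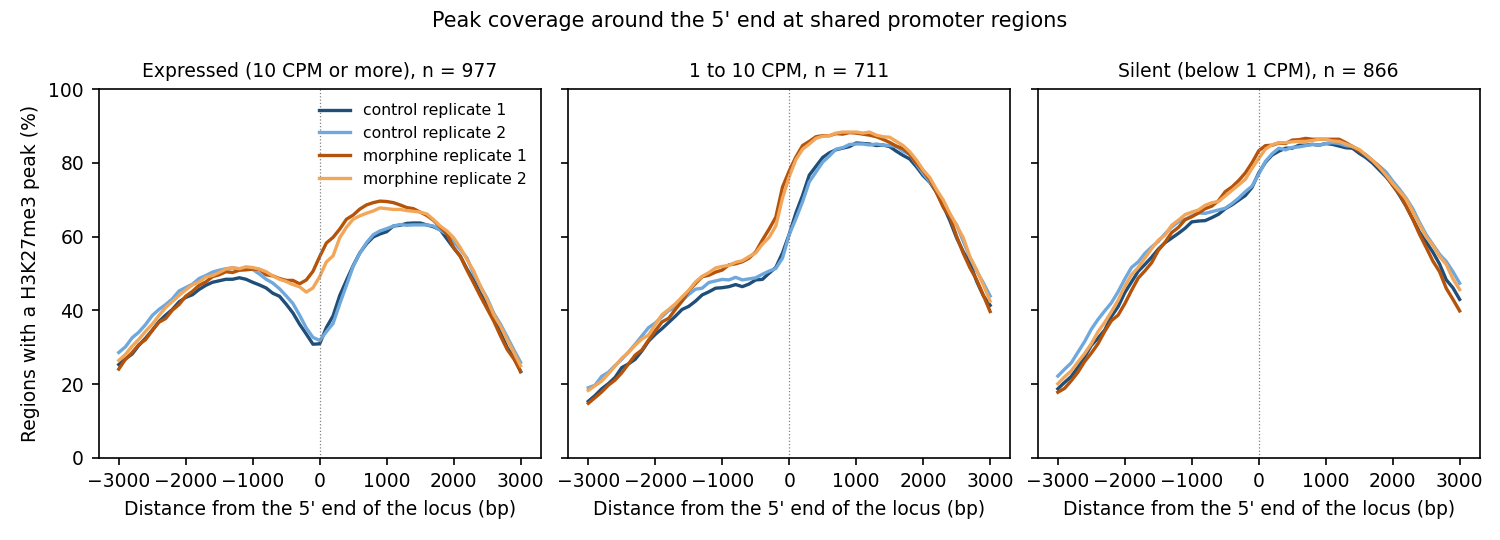
Share of shared promoter regions with a H3K27me3 peak (%, vertical axis) at each distance from the 5′ end of the highest locus (bp, negative upstream), with a line per library, for the 977 expressed, 711 intermediate and 866 silent regions. In the expressed class the control lines dip to 30.9% and 31.8% at the 5′ end and the morphine lines stay at 54.6% and 49.1%.

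The profile around the 5′ end showed where the coverage differed. In the control libraries coverage of members was highest 1200 and 1300 bp upstream, at 48.8% and 51.5%, and 1400 and 1200 bp downstream, at 63.7% and 63.3%. Between these flanks it fell to 30.9% and 31.8% at the 5′ end, counting any peak of the library. The ratio of the 5′ end to the mean of the flanking maxima was 0.550 and 0.555 in control, against 0.903 and 0.822 in morphine. The upstream maxima in morphine were 51.2% and 51.8%, close to those of control, whereas the downstream maxima were 69.6% and 67.8% and lay nearer the 5′ end, at 900 bp in both libraries. Coverage 1500 bp upstream was 48.0% and 50.9% in control and 49.6% and 50.3% in morphine. The dip was thus narrower and shallower in morphine, while the outer flanks upstream overlapped between conditions.

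Region by region, 297 members had a peak over the 5′ end in more morphine than control libraries, 26 in more control than morphine libraries and 654 in equal numbers. The 5′ end was covered in all 4 libraries at 242 members, in none at 387, in both morphine libraries only at 126 and in both control libraries only at 2. At the 387 members whose 5′ end was free in every library, the nearest peak lay closer to it with morphine at 308 and closer in control at 79, by the mean distance of each condition. Median distances there were 535 and 498 bp in control and 327 and 324 bp in morphine. The peaks at these members therefore also ended nearer to the 5′ end in both morphine libraries than in both control libraries.

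**Figure D2:**
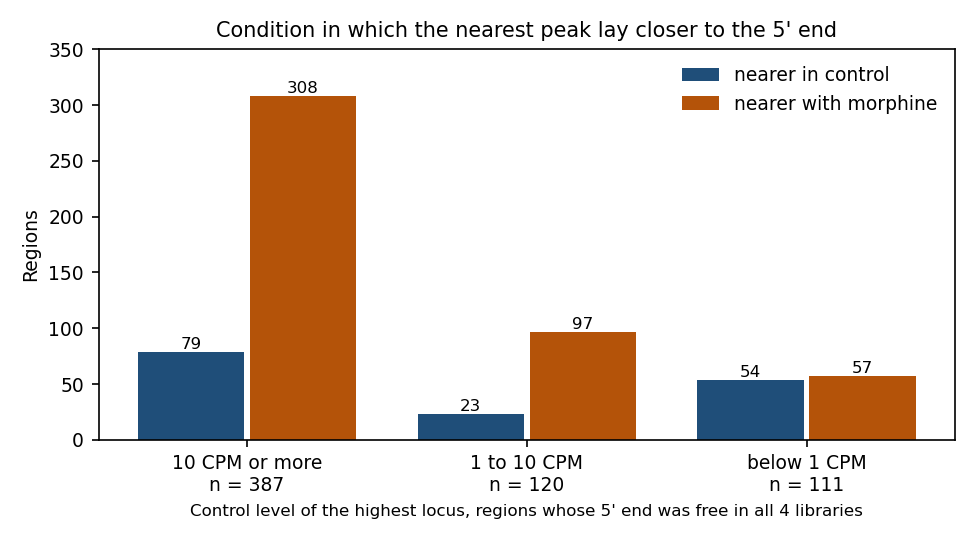
Number of regions (vertical axis) in which the nearest peak lay closer to the 5′ end in control or with morphine, for the regions of each expression class whose 5′ end was free of peaks in all 4 libraries. At expressed loci 308 of 387 were nearer with morphine, at intermediate loci 97 of 120 and at silent loci 57 of 111.

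The 126 had a median control level of 31.0 CPM, beside 33.5 CPM for all members. Among the members named for their RNA level, Gab1 and Kars belonged to them. At Gab1 (chr8:80875960-80880935) the nearest control peaks ended 53 and 293 bp from the 5′ end, and both morphine peaks lay over it. At Kars (chr8:112010132-112014022) those distances were 453 and 451 bp in control and 0 bp in both morphine libraries.

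Other members of this kind were Epas1, the hypoxia-inducible factor HIF-2α (134 and 59 bp in control), B2m, the light chain of class I histocompatibility molecules (66 and 16 bp), and Ephb2, a receptor of ephrins (32 and 182 bp). The 2 members with the opposite pattern, named after their values were seen, were Piwil2, a Piwi-type Argonaute of the germ line (5 and 265 bp in morphine), and Utp23, a ribosome biogenesis factor (160 and 18 bp in morphine). Gli2, a transcription factor of Hedgehog signalling, had no peak over its 5′ end in any library, and the nearest peak lay 1757 and 1717 bp away in control and 655 and 846 bp away in morphine. 2610507B11Rik also stayed free in all 4, at 236 and 236 bp in control and 167 and 236 bp in morphine.

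At the 126 loci covered only with morphine the median log2 fold change of RNA level, morphine over control, was -0.01, against 0.02 for the 242 covered in all 4 libraries and -0.05 for the 385 tested loci covered in none. Of the 126, 1 locus was called lower (Lrp2) and none higher in the edgeR test described below, against 1.52% of all loci, with 16 higher and 20 lower at an unadjusted p under 0.05 (28.6%, against 29.5% of members, 20.5% of all loci and 32.8% of loci with at least 10 CPM) and 3 called by DESeq2 (2.38%, against 2.98% of all loci). At Gab1 the log2 fold change was -0.13 ± 0.04 (SE) and at Kars -0.0047 ± 0.04, with adjusted p of 0.121 and 0.967 by edgeR's quasi-likelihood test.

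**Figure D3:**
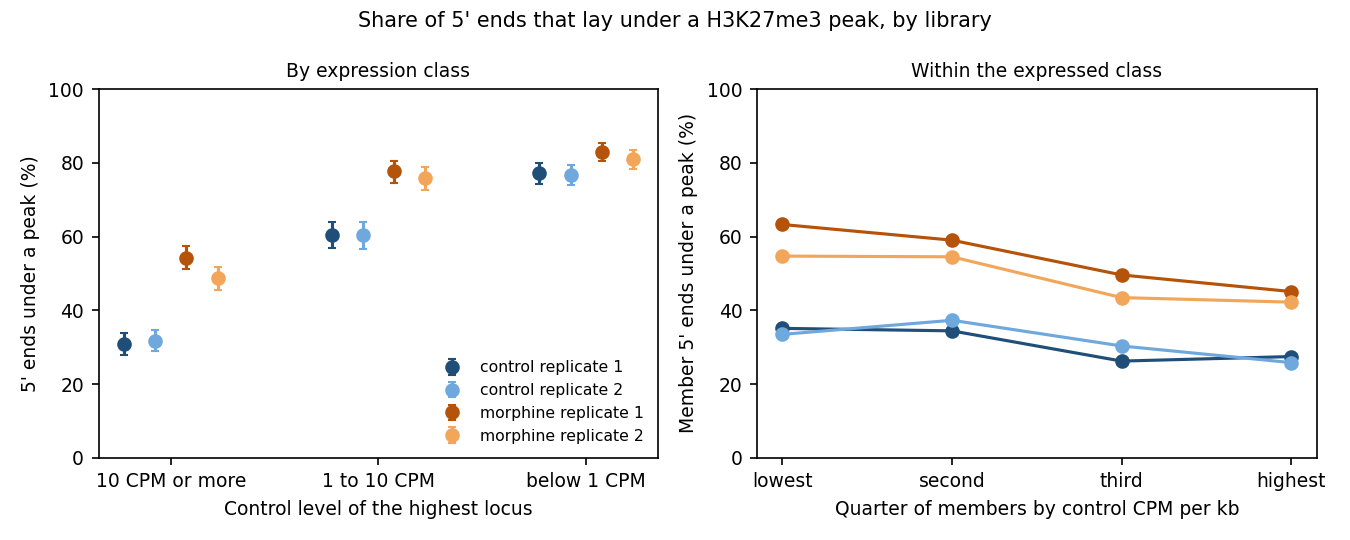
Share of 5′ ends under a H3K27me3 peak (%, vertical axis) in each library, by expression class with 95% Wilson intervals (left) and for the members split into quartiles of control CPM per kb (right). With all peaks counted, morphine points lie above control points in every class and quartile. The gap runs from 20.2 points at expressed loci to 5.08 points at silent loci.

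The 5′ ends of silent loci were mostly under a peak in control already, which left less room for a rise in points. At the 866 silent regions the 5′ end lay under a peak in 77.1% and 76.8% of cases in control and 83.0% and 81.1% in morphine, a difference of 5.08 points with a pooled SD of 0.997. At the 711 intermediate regions the shares were 60.5% and 60.3% in control and 77.6% and 75.9% in morphine, a difference of 16.4 points. As a share of the 5′ ends free in control, these differences were 29.4% at members, 41.4% at intermediate and 22.1% at silent regions. With all peaks counted, the difference in points thus sets no order between the classes. Within libraries, the share of members was below that of silent regions in 4 of 4, with a mean difference of -38.1 points and a two-sided exact sign-flip permutation p of 0.125, the smallest that 4 libraries allow. With peaks of score 100 or more that difference was -22.5 points. The silent shares with such peaks were 53.8% and 54.0% in control and 52.0% and 58.2% in morphine, so the conditions overlapped there. At the silent regions free in all 4 libraries the nearest peak was closer with morphine at 57 and in control at 54, beside 308 and 79 at members and 97 and 23 at intermediate regions.

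Among members the share was lower in the highest quartile of RNA level than in the lowest. From the lowest to the highest quartile of CPM per kb, the control shares went from 35.1% and 33.5% to 27.5% and 25.8%, and the morphine shares from 63.3% and 54.7% to 45.1% and 42.2%. The difference between conditions was 24.7, 20.9, 18.2 and 17.0 points in the 4 quartiles. Morphine libraries lay above control libraries in each quartile. Since the quartiles share their libraries, no test was made between them.

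The peaks of members were narrower than those of silent regions. The median length under a peak was 2812 and 2945 bp per member in control and 3089 and 3117 bp in morphine. The difference of 224.5 bp exceeded the pooled SD of 68.0 bp, with an exact permutation p of 0.333, but it was 4.50 bp when only peaks of score 100 or more were counted. Silent regions had 4360 and 4614 bp in control and 4300 and 4526 bp in morphine. Members lay below them in 4 of 4 libraries, with a mean difference of -1459 bp (exact sign-flip permutation p = 0.125), or of -768 bp with peaks of score 100 or more. At the 2863 shared regions away from 5′ ends the medians were 2977 and 3313 bp in control and 2932 and 3203 bp in morphine. There and at silent regions the conditions overlapped, whereas at the intermediate regions they did not, with 3614 and 3754 bp in control and 3866 and 3993 bp in morphine. The difference between members and silent regions changed by 298 bp with morphine, against a pooled SD of 116 bp (exact permutation p = 0.333).

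The widest members were Abca5, a lipid transporter (7909 bp on average over the 4 libraries), Gas8, a component of motile cilia (7888 bp), Ddx43, an RNA helicase of the germ line (7702 bp), E2f6, the E2F protein of a variant Polycomb repressive complex 1 (7624 bp), and Erbb2, a receptor tyrosine kinase (7613 bp). Of these, Abca5, Ddx43, E2f6 and Erbb2 had their 5′ end under a peak in every library. At Gas8 it was free in every library, with the nearest peak 144 and 149 bp away in control and 285 and 317 bp away in morphine.

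The rule favours strong peaks, since a member needed a peak in every library, so the rank of its peaks is a description. The median percentile of the peak score was 81.5 and 86.4 in control and 76.4 and 83.7 in morphine, where 100 would be the strongest peak of a library. The difference of -3.88 lay within the pooled SD of 4.41 (exact permutation p = 0.667), and without morphine replicate 1 it was -0.24. Silent regions had 74.1 and 78.6 in control and 69.5 and 77.0 in morphine, so members lay higher in 4 of 4 libraries, by 7.20 on average (exact sign-flip permutation p = 0.125). Shared regions away from 5′ ends, which also had a peak in every library, had 65.1 and 74.1 in control and 57.2 and 71.2 in morphine. The members whose weakest peak still ranked highest were Rrs1, a ribosome biogenesis factor, Baiap2, an adaptor of actin at the membrane, Epas1, Dhx40, an RNA helicase, and Arpc5, a subunit of the Arp2/3 complex. Their lowest percentile over the 4 libraries was 99.3 to 99.6.

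Few member loci were called changed in RNA level with morphine. Of 973 member loci, all of which passed the filter on low counts, 8 were called higher and 11 lower at an adjusted p of 0.05 by edgeR's quasi-likelihood test. In bulk RNA, fewer cells that express a gene and less RNA per cell cannot be told apart. The calls were 1.95% of the members, against a background of 1.52% of the 20350 loci tested (0.614% higher and 0.904% lower) and 2.85% of the 9705 tested loci with at least 10 CPM in control. At 7466 expressed loci without a peak within 1 kb the share was 2.67%. The members' share thus lay near the background of expressed loci. The median log2 fold change of member loci was -0.02, against 0.00 for all loci tested, and 287 of the 973 (29.5%) had an unadjusted p under 0.05, against 32.8% of loci with at least 10 CPM.

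The number of calls depended on single libraries and on the model. Without morphine RNA-Seq replicate 1 no member was called, with 121 at an unadjusted p under 0.05, and over all 21224 loci of that fit 10 were higher and 3 lower (0.0612%). Without control replicate 2 there were 109 member calls (11.2% of members, against 7.67% of all loci in that fit). DESeq2 called 16 higher and 20 lower (3.70%, against 2.98% of all). With the trend of fold change on locus length removed, 12 were higher and 5 lower (1.75%, against 1.56%), and only 10 of the 19 calls above were kept. With trends on length and GC content removed, 4 were higher and 5 lower (0.925%, against 0.477%).

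**Figure D4:**
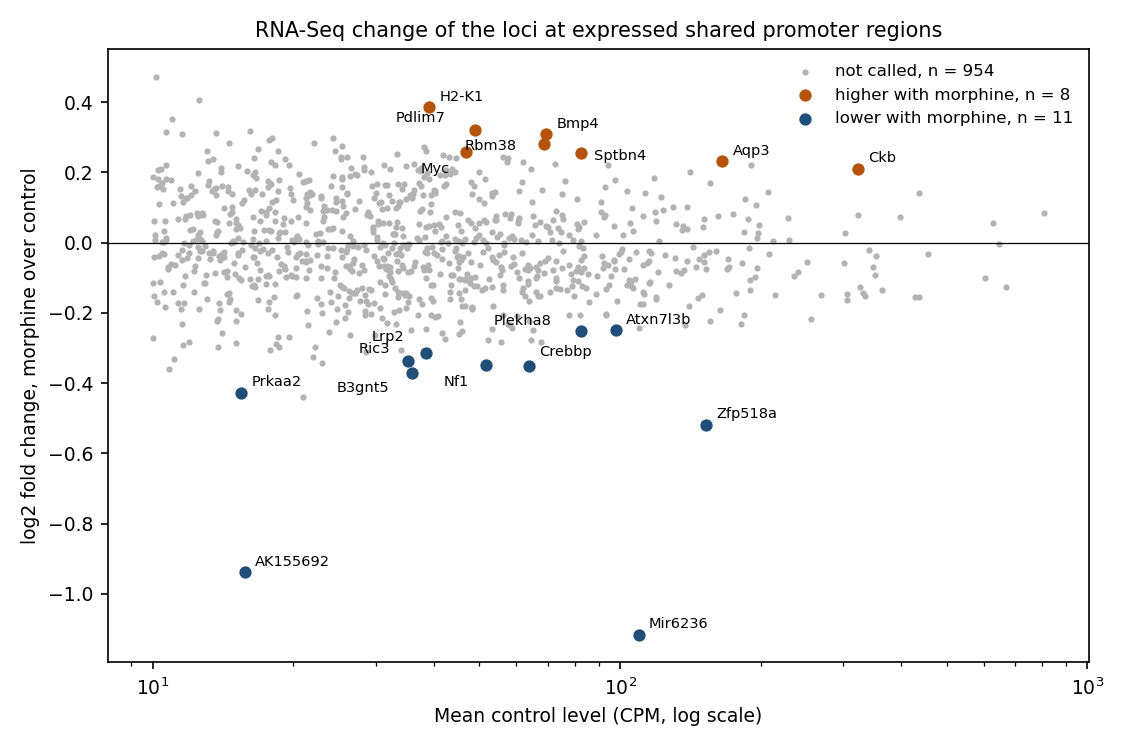
Fold change of RNA level with morphine (log2, vertical axis) against the mean control level (CPM, log axis) for the 973 member loci, with the 8 called higher and the 11 called lower named. Apart from Mir6236 and AK155692, the called loci changed by 0.21 to 0.52 in size on the log2 scale.

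Of the 8 member loci that rose, the largest change was that of H2-K1, a class I histocompatibility heavy chain, at 37.1 and 41.5 normalised CPM in control and 51.4 and 51.4 in morphine (log2 fold change 0.39 ± 0.07 (SE), adjusted p = 0.0246). Bmp4 stood at 68.3 and 71.5 CPM in control and 87.8 and 85.4 in morphine (0.31 ± 0.05 (SE), adjusted p = 0.0263). The morphine libraries lay above the control libraries at all 8, as they do without overlap, in either direction, at 63.6% of member loci and 52.7% of all loci. H2-K1 (chr17:33996681-34003139) and Bmp4 (chr14:46387920-46390893) had their 5′ end under a peak in all 4 libraries.

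Myc, a transcription factor of growth and stem cell renewal, stood at 47.3 and 47.3 CPM in control and 57.6 and 55.5 in morphine (0.26 ± 0.06 (SE), adjusted p = 0.04996). Rbm38, an RNA-binding protein induced by p53, stood at 67.7 and 70.6 CPM and at 85.8 and 82.5 with morphine (log2 fold change 0.28). Pdlim7, an adaptor of the actin cytoskeleton, stood at 47.5 and 51.0 CPM and at 64.4 and 58.7 with morphine (0.32), at a locus that carries 2 names. Sptbn4 (a spectrin, 0.25), Aqp3 (a water and glycerol channel, 0.23) and Ckb (0.21) made up the rest. With the trends on length and GC content removed, the log2 fold changes of Ckb, Rbm38 and Sptbn4 were 0.03, 0.09 and 0.12, and none of the 3 was called. The risen loci differed in peak position: 4 were covered at the 5′ end in all 4 libraries (H2-K1, Bmp4, Sptbn4 and Aqp3), 2 in some of them (Myc and Rbm38) and 2 in none (Pdlim7 and Ckb).

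**Figure D5:**
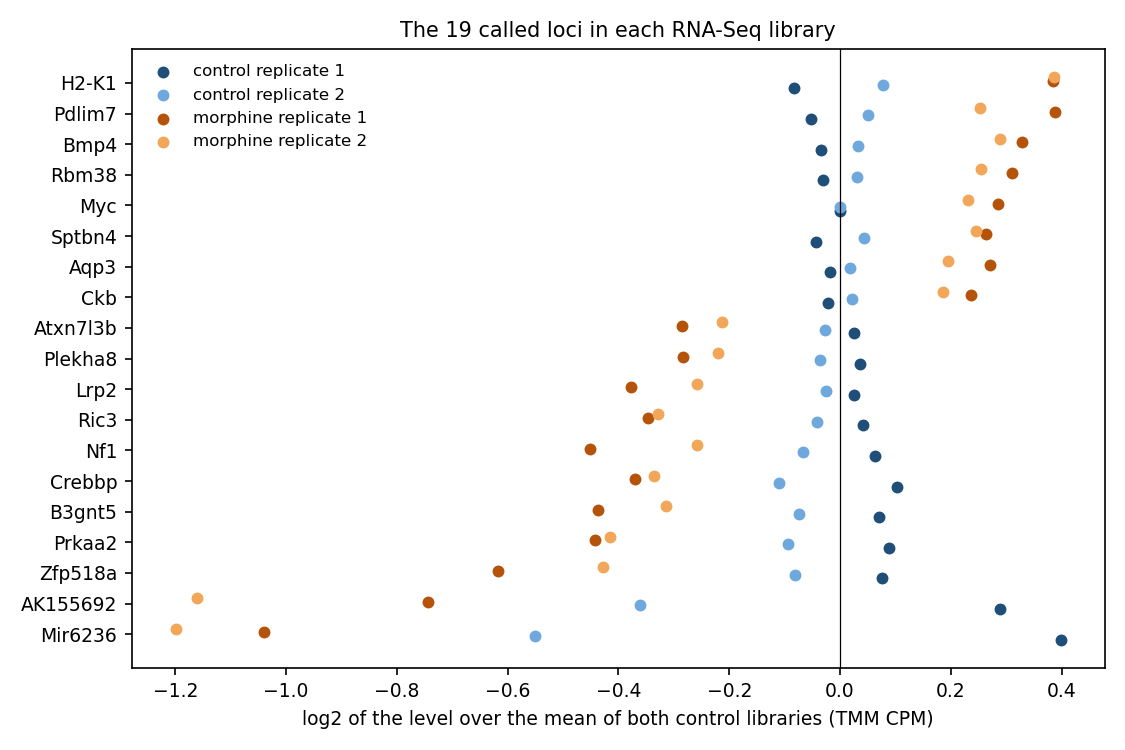
Level of each of the 19 called member loci in each RNA-Seq library, as the log2 of its normalised CPM over the mean of both control libraries (horizontal axis). The morphine points lie to 1 side of the control points, as at 52.7% of all loci, and control replicates lie farthest apart at Mir6236 and AK155692.

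Of the 11 that fell, Mir6236 (145.7 and 75.4 CPM in control, 53.8 and 48.2 in morphine, log2 fold change -1.12 ± 0.21 (SE), adjusted p = 0.0342) and AK155692 (19.4 and 12.4 CPM, then 9.49 and 7.10, -0.94 ± 0.19 (SE), adjusted p = 0.0405) had the largest changes and the widest spread between controls. They are short loci of 123 and 532 bp, and copies of them elsewhere were not examined, so their levels are uncertain. Without control replicate 1 their log2 fold changes were -0.57 and -0.59, and DESeq2 kept 16 of the 19 calls, without Mir6236 (adjusted p = 0.109) and without AK155692 and Prkaa2, for which it gave no adjusted p. Zfp518a, a zinc finger protein, fell from 162 and 145 CPM to 100.3 and 114 (-0.52 ± 0.07 (SE), adjusted p = 0.00993), at a locus that carries 2 names. It was the only member called at an adjusted p of 0.01.

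Crebbp stood at 68.9 and 59.5 CPM in control and 49.7 and 50.9 in morphine (-0.35 ± 0.07 (SE), adjusted p = 0.0419). Nf1, a GTPase-activating protein of Ras, stood at 54.3 and 49.6 CPM and at 37.99 and 43.4 with morphine (log2 fold change -0.35). Prkaa2, a catalytic subunit of the AMP-activated kinase, stood at 16.6 and 14.6 CPM and at 11.5 and 11.7 with morphine (-0.43). B3gnt5 (-0.37) and Ric3, a chaperone of nicotinic acetylcholine receptors (-0.34), fell too, as did Lrp2 (-0.32), Plekha8 (-0.25) and Atxn7l3b (-0.25), which were named after their values were seen.

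Of the 11 fallen loci, 7 had 5′ ends free in all 4 libraries (Zfp518a, Prkaa2, B3gnt5, Crebbp, Nf1, Plekha8 and Atxn7l3b), 3 were covered in all 4 (Mir6236, AK155692 and Ric3) and 1 with morphine only (Lrp2). Over all members 39.6% were free and 24.8% covered in all 4. At Crebbp (chr16:4214158-4220927) the peaks lay 953, 806, 754 and 865 bp upstream in the order control replicates 1 and 2, morphine replicates 1 and 2. At Nf1 (chr11:79336348-79339677) they lay 456, 359, 323 and 215 bp upstream in that order, and at B3gnt5 (chr16:19760253-19763608) 569, 481, 74 and 19 bp downstream. The GC content of the locus ran from 52.6% to 62.0% in the 8 that rose and from 37.5% to 61.1% in the 11 that fell. With the length trend alone removed, Crebbp, Nf1, Prkaa2, Ric3, Lrp2, Plekha8, Myc, Ckb and Aqp3 were not called. Of the 19, Bmp4, Zfp518a, Crebbp, Mir6236 and AK155692 were still called with the trends on length and GC content removed. In that fit the log2 fold changes were -0.28 for Zfp518a, -0.17 for B3gnt5, -0.19 for Nf1, -0.24 for Prkaa2, -0.20 for Ric3, -0.16 for Plekha8, 0.18 for Pdlim7 and 0.17 for Myc. The part of base composition in the other calls was not tested further.

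Genes of development were described by lists. Of 360 symbols with the prefixes of developmental transcription factor families, 88 were expressed at 10 CPM or more and 16 of those were members, none of them called. The highest were Prdm2 (116 CPM, log2 fold change -0.11), Gli2 (97.0 CPM, 0.05), Tead4 (81.0 CPM, 0.05) and Tcf7 (69.5 CPM, 0.05). The list's 206 symbols below 1 CPM contributed 7 silent shared promoter regions, of 866 in all. Few of the silent regions thus lay at the developmental genes of this list, unlike the general description of the mark above. The reason was not tested. Of the 30 expressed pluripotency factors only Lefty2, a Nodal antagonist, was a member (130 CPM, 0.10, adjusted p = 0.266 by edgeR), and its 5′ end lay under a peak in all 4 libraries.

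The TGF-β, BMP and Nodal pathway had 9 members among its 25 expressed symbols, and 1 of the 9, Bmp4, was called higher, beside 1.52% of all loci and 2.85% of loci with at least 10 CPM called in either direction. The 4 of the 9 whose 5′ end lay under a peak in every library, beside 24.8% of all members, were Bmp4, Inhbb, which encodes an activin subunit (108 CPM, log2 fold change -0.03), Lefty2 and Fstl1, a follistatin-like protein (114 CPM, -0.06). Ski, a nuclear corepressor of SMADs (135 CPM, -0.09), had the nearest peak 905, 723, 655 and 693 bp away in the same library order. The median log2 fold change of the 9 was -0.03, against 0.03 over the 68 loci of the list that were tested and 0.00 over all loci.

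The Wnt pathway had 6 members among 27 expressed symbols, none called. The highest were Tcf7, Fzd10, a Frizzled receptor (25.9 CPM, log2 fold change -0.03), Sfrp2, a secreted antagonist (24.3 CPM, -0.02), and Znrf3, a ubiquitin ligase that removes Frizzled receptors (24.0 CPM, -0.14). The FGF and MAPK list had 3 members among 24 expressed symbols, among them the receptor adaptor Frs2 (67.5 CPM, -0.15) and the receptor Fgfr4 (12.5 CPM, 0.41, adjusted p = 0.0693 by edgeR). The Notch and Hedgehog list had 3 among 21, Gli2, the receptor-like Smo (40.9 CPM, 0.05) and Gli3 (17.4 CPM, -0.12). The guidance list had 6 among 24, the highest being Fat1, an atypical cadherin (335 CPM, -0.15), Plxna1, a semaphorin receptor (303 CPM, 0.03), Sema6c (31.7 CPM, 0.16) and Ephb2 (20.6 CPM, -0.03). No member of these 4 lists was called.

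Over all expressed loci there were 10.4 members per 100. Of 20 expressed PRC1 symbols 4 were members: the ring-finger protein Pcgf3 (66.2 CPM), E2f6 (34.2 CPM), the chromodomain protein Cbx2 (32.7 CPM) and Phc2 (21.3 CPM). Their log2 fold changes were -0.14, -0.06, 0.02 and 0.18 in that order, none called. Of 14 PRC2 symbols Lcor (54.3 CPM, -0.06) and Phf19 (32.4 CPM, -0.10) were members, and of 13 expressed demethylase and trithorax symbols only Kmt2c, a H3K4 methyltransferase (109.9 CPM, -0.24, adjusted p = 0.0894 by edgeR). Cbx2, E2f6 and Phf19 had a peak over the 5′ end in all 4 libraries, and Kmt2c, Pcgf3 and Lcor in none.

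The list of D cyclins, CDK inhibitors and p53 targets also held Myc, the transcription factor of growth, which its name does not cover. The list had 4 members among 20 expressed symbols, of which 1, Myc, was called higher, beside the same 1.52% and 2.85%. The others were Plk2 (45.9 CPM, log2 fold change -0.0017), Cdkn1b, the CDK inhibitor p27 (34.4 CPM, 0.02), and Gadd45b (31.3 CPM, 0.22, adjusted p = 0.105 by edgeR). Imprinted genes gave 5 members among 27, including Gab1, Mest (352 CPM, -0.04), Peg3 (66.4 CPM, -0.10) and Inpp5f (32.0 CPM, -0.09), none called. Mest had its 5′ end under a peak in every library and Peg3 in none. Members were 2 of 79 expressed ribosomal protein symbols (Rpl7 and Rpl26), 0 of 17 glycolysis enzymes and 1 of 10 reference genes (B2m, 0.02). No replication-dependent histone gene was expressed at 10 CPM, so none could be a member. By chromosome there were 14.8 members per 100 expressed loci on chromosome 8, 14.0 on chromosome 1, 6.57 on chromosome 7 and 2.30 on the X chromosome. In that order these chromosomes held 9.37%, 6.01%, 5.97% and 1.25% of all peaks of the 4 libraries. Chromosome 11, with the most peaks (10.7%), had 11.1 members per 100 expressed loci. The part of the density of all peaks in these values was not tested.

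Over the lists without a call by edgeR, 47 distinct members were measured, of which 5 were higher and 8 lower at an unadjusted p under 0.05, and DESeq2 called 1, Kmt2c, lower. Those 27.7% and 2.13% stand beside 20.5% and 2.98% of all loci, and beside 29.5% of members at an unadjusted p under 0.05.

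Across the 977 members the measures were only loosely related. Spearman's rho was -0.09 between control CPM per kb and the length under a peak, -0.05 between CPM per kb and the CpG ratio, and 0.10 between the length and the lowest score percentile. These are descriptions across regions that share libraries.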

How the data were processed

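Mouse mESCs were profiled with 4 H3K27me3 ChIP-Seq and 4 RNA-Seq libraries, 2 per condition, grouped by their labels. Per the labels and the paper, the authors trimmed reads with Trim Galore (version 0.6.2), aligned ChIP reads to mm10 with Bowtie2 (version 2.3.5.1) and called peaks in each library with MACS (p-value limit 1e-05). The peak score deposited by the authors rises with the -log10 of the p-value and was used only within a library, as a percentile or a filter. Which control library the caller was given is not stated in the sources used here. The paper gives a minimum number of ChIP-Seq reads per replicate, but reads per library or per peak were not used here. The deposited RNA-Seq table holds the authors' unnormalised counts of each locus, made with HISAT2 (version 2.1.0), StringTie (version 1.3.6) and featureCounts (version 1.6.4). Their strand setting and treatment of multiple alignments are not stated in the sources used here, so overlapping loci and near-identical copies are uncertain.

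Peaks of the 4 lists were merged where they shared a base. A locus's 5′ end was its lowest start on the plus strand or highest end on the minus strand, and CPM for the rule used the column totals. Peak measures were compared over libraries by two-sided exact permutation and sign-flip tests (Python 3.11.15, numpy 2.4.6), which cannot go below 0.333 and 0.125. Counts were filtered by filterByExpr, TMM-normalised and tested over 20350 loci with the quasi-likelihood method of edgeR (version 4.0.16 in R 4.3.3) and Benjamini-Hochberg adjustment. DESeq2 (version 1.42.0) was an alternative. On simulated counts, with 19931 loci tested, 200 of 200 changed loci were recovered and 27 calls were false. False calls thus made up a larger share of the calls than the limit on the adjusted p allows. Other alternatives were peak filters, other distances and limits, other scalings and filters, a replicate block and leaving out each library. Sequences and transcript starts came from RefSeq GRCm38.p6 and GENCODE vM21, whose assembly is that of mm10.

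Loci named were the 8 members highest in CPM, up to 8 called in each direction, up to 4 of the highest per gene list, 3 regions on each side of the limit, the 5 widest and the 5 with the highest lowest score percentile, and up to 5 with more than 3 named loci. A few of these are not reported here. The members, lists and tests were chosen with earlier results of these data known.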

Additional observations from a re-analysis of the deposited data

How the results depend on the processing

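The differences in peak position and score kept their direction under every peak filter and with each ChIP-Seq library left out. The difference in width did not hold with peaks of score 100 or more, where it was 4.50 bp (exact permutation p = 1.0) and the libraries overlapped (2532 and 2687 bp in control, 2460 and 2768 bp in morphine). Leaving out 1 library at a time, the difference in the share of member 5′ ends under a peak ran from 17.4 to 23.0 points, that in width from 158 to 291 bp and that in score percentile from -7.52 to -0.242. The number of members was 525 with peaks of score 100 or more and 601 where the region had to overlap the 5′ end, and lay between 711 and 1220 under the other choices. No p-value of the peak measures could pass 0.05 in this design.

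The number of called member loci, 19 as reported, depended on the choice of test. It was 54 with edgeR's exact test (5.55%, against 3.88% of all loci), 36 with DESeq2, 107 without a count filter, 72 when only named loci were tested (7.40%, against 5.60%), 9 with the length and GC trends removed and 1 at an adjusted p of 0.01 (0.103%, against 0.118%). Leaving out 1 RNA-Seq library at a time gave 0 to 109 calls. Replicate numbers are shared by the conditions, but the deviations of same-numbered libraries correlated at only 0.031 over 20350 loci, so the numbers were not taken as pairs. With a replicate block 75 members were called, 33 higher and 42 lower (7.71%, against 5.54% of all loci). Without a count filter the shares were 11.0% and 5.44%. None of the 19 called loci changed direction under the RNA-Seq alternatives, leaving aside AK155692 and Prkaa2 under DESeq2, which gave them no adjusted p. The causes of these changes were not tested.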
